A study of Mus musculus with 11 samples.

Results

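The Krüppel-like factor family was represented here by 10 genes, *Klf2*, *Klf3*, *Klf4*, *Klf5*, *Klf6*, *Klf7*, *Klf9*, *Klf10*, *Klf13* and *Klf16*, which were measured by 14 of the 41174 probes of a whole-genome mouse array, on which 17012 genes could be named. Mouse Leydig tumor cells (MLTCs) of the line MLTC-1, which came from a tumor of the testosterone-producing cells of the testis, were transiently transfected with 1 of 2 siRNAs that target *Mamld1*, here siRNA1 and siRNA2, and the control cells received the non-targeting RNA 4611G, each at 20 nM. Total RNA was taken 48 h later according to the labels, and the methods of the study place the harvest after human chorionic gonadotropin had been added to the medium of all groups. There were 4 control arrays, 4 siRNA1 arrays and 3 siRNA2 arrays, spread over 3 slides, and each slide held all 3 groups. Nothing in the labels says that the arrays of a group came from separate cultures, so that the p-values measure only the spread between these arrays, which may be technical, and 1 cell line with 2 siRNAs limits the model. The members were selected on measured values: *Klf2* was picked because its dimmer probe was higher with both siRNAs while its brighter probe was not, and the other 9 genes were taken as its family. The 2 *Klf2* probes are therefore described against control without a test.

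Krüppel-like factors are transcription factors that bind GC-rich and CACCC elements through zinc fingers at the carboxy-terminal end, the same DNA that is bound by the related Sp factors. *Klf2*, *Klf4*, *Klf5*, *Klf6* and *Klf7* are usually classed as activators, although *Klf4* also represses, and *Klf3* represses through the corepressor CtBP. *Klf9*, *Klf10*, *Klf13* and *Klf16* recruit the Sin3 corepressor. In steroid-producing cells, promoters of cholesterol supply and side-chain cleavage genes carry such GC-rich elements, and several members respond within hours to growth factors, hormones or serum.

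RefSeq promoters on GRCm38.p6 were found for 7 of the 10 members (*Klf2*, *Klf3*, *Klf4*, *Klf6*, *Klf7*, *Klf9* and *Klf13*). The 250 bases before the start are shown for 3 of them: *Klf2*, whose probes disagreed, *Klf6*, which has a probe that rose with both siRNAs, and *Klf9*, whose probes rose together with siRNA1. The windows are chr8:72318812-72319061 for *Klf2*, chr13:5861239-5861488 for *Klf6* and chr19:23140976-23141225 for *Klf9*, all on the plus strand and written 5′ to 3′. Capitals mark the GC box (GGGCGG on either strand) and a MEF2 motif (CTANNNNTAG).
Klf2: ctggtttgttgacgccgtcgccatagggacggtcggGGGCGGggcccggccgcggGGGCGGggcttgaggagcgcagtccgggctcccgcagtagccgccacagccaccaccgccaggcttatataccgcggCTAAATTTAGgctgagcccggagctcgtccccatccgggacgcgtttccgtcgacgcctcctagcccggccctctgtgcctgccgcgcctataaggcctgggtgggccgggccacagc
Klf6: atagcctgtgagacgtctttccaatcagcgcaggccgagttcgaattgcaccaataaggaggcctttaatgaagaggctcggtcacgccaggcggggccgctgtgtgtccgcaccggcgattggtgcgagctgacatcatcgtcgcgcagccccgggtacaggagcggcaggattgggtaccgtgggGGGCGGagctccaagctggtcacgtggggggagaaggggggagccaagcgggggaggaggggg
Klf9: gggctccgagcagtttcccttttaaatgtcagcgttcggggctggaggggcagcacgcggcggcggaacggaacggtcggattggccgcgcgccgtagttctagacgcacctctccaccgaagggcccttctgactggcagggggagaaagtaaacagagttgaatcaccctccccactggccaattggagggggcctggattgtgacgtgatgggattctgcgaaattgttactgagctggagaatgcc

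The *Klf2* window held 2 GC boxes and 1 MEF2 motif, which lay at -118 to -109 from the start, the *Klf6* window held 1 GC box, and the *Klf9* window held neither. A GC box was present in 6 of the 7 members' windows and in 32.7% of 32851 promoter windows of the same length. The MEF2 motif was present in 1 of the 7 and in 3.2% of all windows. CACCC, the other element that the family binds, was present in 5 of the 7 and in 52% of all windows; the letters of both elements can overlap at a run of C. The letters TGACGTCA (cAMP response element), ACANNNTGT (glucocorticoid response element), CAAGGTCA (NR5A1 motif) and TATAAA were in none of the 7 windows and in 1.55%, 5.84%, 1.33% and 12.4% of all windows. A match is a description of letters only.

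The members were detected on the arrays. All 14 probes were well above background on all 11 arrays. The share of spots well above background was 58.6% to 62.6% per array, and no spot was saturated. The array's 75th percentile, to which every value below is scaled, was 469.7 to 581.7 in control, 600.7 to 773.8 in siRNA1 and 488.4 to 578.8 in siRNA2, so that the siRNA1 arrays were brighter before scaling than all other arrays. *Mamld1* itself, as the check of the labels, was at 52.5% of control with siRNA1 (44.1% to 77.0%) and at 58.8% with siRNA2 (45.3% to 68.6%), against 85.2% to 119% in the control arrays. Of the marker lists, all 9 Leydig cell probes (*Cyp11a1*, *Star*, *Hsd3b1*, *Lhcgr*, *Insl3*, *Nr5a1* and *Cyp17a1*) were above background on every array. In bulk RNA, fewer cells of a type and less RNA per cell cannot be told apart.

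*Klf2*, a factor known for keeping endothelial cells and T lymphocytes quiescent, differed between its 2 probes. On the dimmer probe (A_51_P144264) the processed signal was 187, 176, 264 and 237 in the control arrays 1 to 4, 405, 502, 660 and 657 in the siRNA1 arrays 1 to 4, and 557, 594 and 642 in the siRNA2 arrays 1 to 3. Every siRNA array was thus above every control array before scaling, and after scaling the siRNA1 arrays lay at 158% to 258% of control and the siRNA2 arrays at 234% to 316%. The log2 difference from control was 1.02 with siRNA1 and 1.40 with siRNA2.

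On the brighter *Klf2* probe (A_52_P442031) the processed signal was 19656, 24529, 73036 and 40412 in control, 16935, 59385, 45187 and 56763 in siRNA1, and 29262, 65144 and 58354 in siRNA2. The 3 groups overlapped throughout, with means of 110% ± 57.1 (SD, n = 4) of the control geometric mean in control, 103% ± 49.1 (SD, n = 4) in siRNA1 and 140% ± 56.0 (SD, n = 3) in siRNA2. The arrays of slide 1 were low in all 3 groups: the mean deviation from the group means was -0.78 on slide 1, 0.46 on slide 2 and 0.43 on slide 3 (log2). The SD within groups was 0.77 on the log2 scale, larger than that of 99.0% of the tested probes and well above their median of 0.18, whereas the dimmer probe had 0.24. The log2 difference from control on the brighter probe was -0.12 with siRNA1, with a 95% interval of -1.16 to 0.91, and 0.39 with siRNA2, with an interval of -0.73 to 1.51. The siRNA1 value turned positive without control array 3 (0.18) and without siRNA1 array 1 (0.27).

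**Figure D1:**
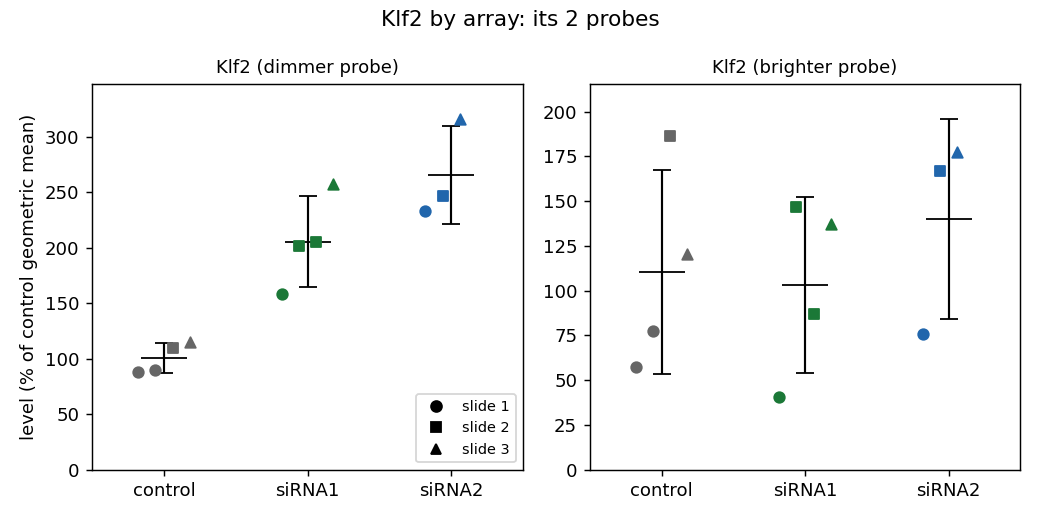
Level of *Klf2* on its dimmer probe (left) and its brighter probe (right), in percent of the control geometric mean (vertical axes, from 0), for each array of the 3 groups (horizontal axes); symbols give the slide, and the horizontal bars with whiskers the mean and SD. On the dimmer probe the siRNA1 arrays sit between 158% and 258% and the siRNA2 arrays between 234% and 316%, above all control arrays, whereas on the brighter probe the groups overlap and the slide 1 arrays sit low.

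The probes also differed within slides. The dimmer probe differed from control by 0.82, 0.90 and 1.17 on slides 1, 2 and 3 with siRNA1 and by 1.39, 1.18 and 1.46 with siRNA2 (log2). The brighter probe differed by -0.71, -0.72 and 0.19 with siRNA1 and by 0.18, -0.16 and 0.56 with siRNA2. Between the siRNAs, a comparison that did not choose the gene, neither probe passed the test: the dimmer probe was lower with siRNA1 than with siRNA2 by a log2 difference of -0.38 (adjusted p = 0.140 by limma, 95% interval -0.75 to -0.0021) and the brighter by -0.51 (adjusted p = 0.516, interval -1.63 to 0.61). With the slide as a block the dimmer probe did pass, at -0.38 (adjusted p = 0.00865).

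The probes whose log2 values most resembled each *Klf2* probe over the 11 arrays were different genes. The dimmer probe was followed most closely by *Arpc1b*, a subunit of the actin-nucleating Arp2/3 complex (Pearson's r = 0.989), *Rasl12* (0.983), *Dtx4*, a Deltex ubiquitin ligase (0.982), *Snapc4* (0.982) and *Prep* (0.980). All 5 of these were higher with both siRNAs, *Arpc1b* by 1.28 and 1.60 and *Rasl12* by 1.14 and 1.42 (log2, siRNA1 and siRNA2). The brighter probe was followed by *Rusc1* (r = 0.993), *Cdk5r2* (0.989), *Foxq1* (0.978), *Ldb1* (0.968) and *Nolc1* (0.966). None of these 5 passed the test with either siRNA, and all 5 were low on slide 1, by -1.04 for *Rusc1* and -1.54 for *Cdk5r2*. Because these probes were picked by correlation over the same arrays, their differences between groups and slides follow from that choice and add no support. The correlations are across arrays that share groups and slides, and are given as a description.

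*Klf2* transcription in endothelium is driven by the ERK5 kinase and MEF2 factors, and *Klf2* in turn represses and induces endothelial genes. Of 10 probes for ERK5 pathway and MEF2 genes, 3 were higher with siRNA1 (against 11.8% of all tested probes) and none passed with siRNA2. The 3 were 1 probe of *Mef2a* (log2 difference 0.55) and 2 probes of *Map2k5*, the kinase that activates ERK5 (0.35 and 0.27). The other *Mef2a* probe did not pass (0.41). Of 10 probes for described targets of *Klf2* and *Klf4*, 1 was higher with siRNA1 and 2 were lower with siRNA2. Over all tested probes these shares were 11.8% and 10.7%. *S1pr1*, a sphingosine phosphate receptor gene, was higher with siRNA1 (0.71) and was at -0.045 with siRNA2. With siRNA2, 1 probe of *Vcam1*, an adhesion molecule gene, was lower (-0.49) and the other did not pass (-0.13). *Cdkn1a*, encoding the cell cycle inhibitor p21, was also lower with siRNA2 (-0.38). Endothelial markers were measured beside *Klf2*: of 7 endothelial probes, those of *Tek*, *Tie1*, *Kdr* and *Emcn* were above background on no array and *Pecam1* on 3 arrays, whereas both probes of *Cdh5*, encoding VE-cadherin, were higher with siRNA1 (0.94 and 1.22) and with siRNA2 (0.84 and 0.84). The summed level of the endothelial probes, in percent of the 75th percentile, was 81.2 to 89.1 in control, 162 to 219 in siRNA1 and 141 to 171 in siRNA2. Nearly all of this sum was *Cdh5*, with mean signals of 666 and 169 against 6.71 for *Pecam1*, so that it follows 1 gene. The part of this sum in the *Klf2* values was not tested.

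Among the 12 probes of the other 9 genes, 3 were higher and 1 was lower with siRNA1, and 3 were higher and none was lower with siRNA2, at an adjusted p of 0.05 or less. Over all 24250 tested probes, 11.8% were higher and 15.2% lower with siRNA1, and 7.7% were higher and 10.7% lower with siRNA2. The median log2 difference of the 12 probes was 0.14 with siRNA1 and 0.25 with siRNA2, against -0.048 and -0.0082 over all tested probes. Probes whose groups did not overlap at all were 3 above and 1 below control for siRNA1, with 12.7% and 16.4% over all probes, and 4 above and none below for siRNA2, with 12.4% and 15.7% over all probes. A single probe of the 12 was higher with both siRNAs, where 4.08% of all tested probes were. None of the 12 passed the adjusted p together with a change of 2-fold.

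**Figure D2:**
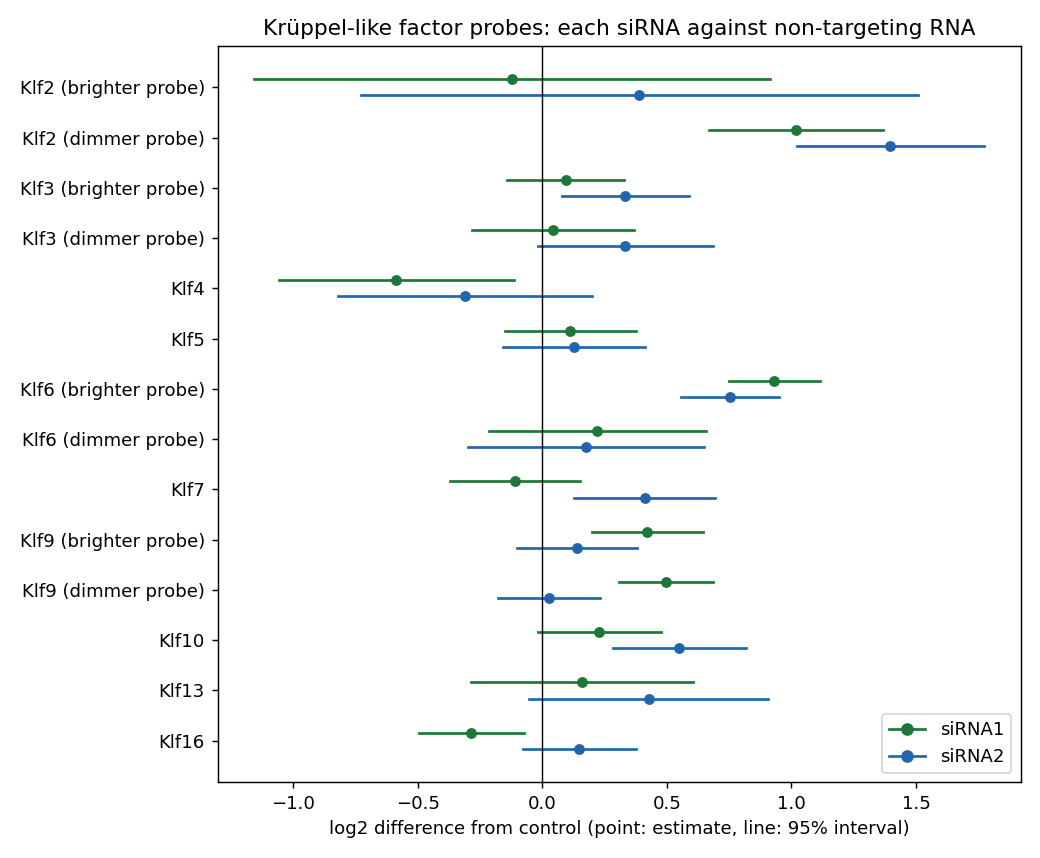
Log2 difference from control (horizontal axis) of each of the 14 probes (vertical axis), with siRNA1 in green and siRNA2 in blue; points are estimates and lines the 95% intervals of the fit, and the vertical line marks no difference. The brighter *Klf6* probe lies at 0.93 and 0.75 with narrow intervals, the brighter *Klf2* probe has the widest intervals, and *Klf7*, *Klf9* and *Klf16* differ between the siRNAs.

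*Klf6*, an activator that is induced early in wound repair and by growth factors, had the clearest rise of the family on its brighter probe (A_51_P451346). Its level was 96.5%, 95.2%, 97.4% and 112% of control in the control arrays 1 to 4, 189%, 184%, 185% and 206% in the siRNA1 arrays, and 165%, 160% and 181% in the siRNA2 arrays. The 3 groups did not overlap. The log2 difference was 0.93 ± 0.083 (SE; limma, adjusted p = 1.82e-05) with siRNA1 and 0.75 ± 0.089 (adjusted p = 0.000200) with siRNA2, and the exact permutation test gave its smallest possible two-sided p of 0.0286 for each. Within slides 1, 2 and 3 the difference was 0.98, 0.92 and 0.88 with siRNA1 and 0.79, 0.72 and 0.70 with siRNA2. The siRNAs differed from each other by 0.18 ± 0.089, which did not pass (adjusted p = 0.187), and with the slide as a block it did, at 0.19 (adjusted p = 0.0358). Each call against control was lost under a normexp background correction of the raw spot signals, at 0.61 (adjusted p = 0.255) and 0.58 (adjusted p = 0.647). By the adjusted p alone, each was made in 26 of the 27 other settings tried, leaving out any array included. Where a 2-fold change was required as well, neither was called.

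The dimmer *Klf6* probe (A_51_P503162) did not show this rise. Its level was 85.8% to 111% of control in the control arrays, 100%, 157%, 102% and 114% in the siRNA1 arrays and 79.7%, 152% and 119% in the siRNA2 arrays, so that the groups overlapped. The log2 difference was 0.22 with siRNA1 (adjusted p = 0.453 by limma) and 0.18 with siRNA2 (adjusted p = 0.663). Setting the dimmer against the brighter probe within each array, the log2 ratio was lower in siRNA1 than in control by a difference of -0.71, with no overlap of the groups (exact permutation p = 0.0286, two-sided, the smallest that 4 against 4 arrays allow). With siRNA2 the difference was -0.58 (exact permutation p = 0.0857). Where the probes lie on the *Klf6* transcript was not analysed here.

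*Klf9*, a repressor known to be induced by glucocorticoid, progesterone and thyroid hormone, was higher with siRNA1 on both of its probes. On the brighter probe (A_52_P675996) the level was 95.3%, 86.8%, 112% and 108% of control in the control arrays, 138%, 145%, 125% and 128% with siRNA1, and 100.1%, 116% and 115% with siRNA2. On the dimmer probe (A_51_P412200) it was 87.3%, 102%, 105% and 107% in control, 147%, 149%, 131% and 138% with siRNA1, and 99.3%, 101% and 106% in siRNA2. On each probe every siRNA1 array was thus above every control and every siRNA2 array.

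The log2 difference of *Klf9* with siRNA1 was 0.42 ± 0.10 (SE; limma, adjusted p = 0.00994) on the brighter and 0.50 ± 0.086 (adjusted p = 0.00157) on the dimmer probe. With siRNA2 it was 0.14 (adjusted p = 0.458) and 0.028 (adjusted p = 0.893). The direct comparison of siRNA1 with siRNA2 passed on the dimmer probe, at 0.47 ± 0.093 (adjusted p = 0.00379), and not on the brighter one, at 0.28 ± 0.11 (adjusted p = 0.0854). Without the arrays of slide 2 the siRNA1 calls were lost, at 0.47 (adjusted p = 0.117) and 0.54 (adjusted p = 0.0692), and that of the brighter probe also without slide 1, at 0.27 (adjusted p = 0.134). The direct call on the dimmer probe was lost without slide 2, at 0.48 (adjusted p = 0.138). Over the 11 arrays the *Klf9* probes were correlated with r = 0.88, against 0.50 for the *Klf3*, 0.39 for the *Klf2* and 0.32 for the *Klf6* probes. Group differences were not removed from these correlations, so the rise of both *Klf9* probes with siRNA1 enters their r.

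*Klf9* shares its hormonal inducers with other genes of the arrays. Of 11 probes for 5 glucocorticoid and progesterone response genes, 4 were higher with siRNA1, 3 were higher with siRNA2, and none was lower. Over all tested probes, 11.8% were higher with siRNA1 and 7.7% with siRNA2. The siRNA1 calls other than *Sgk1* were all on probes of *Fkbp5*. *Sgk1*, encoding a kinase of ion transport, was higher with both (log2 difference 0.60 and 1.02), as was 1 probe of *Fkbp5*, encoding a cochaperone of the glucocorticoid receptor (0.61 and 0.53). The other *Fkbp5* probes that passed did so with siRNA1 (0.55 and 0.36), and the clock gene *Per1* was higher with siRNA2 (0.49).

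*Klf10*, an early gene of transforming growth factor-β signaling that was first known as TIEG1, was higher with siRNA2. Its level was 93.5%, 105%, 97.5% and 105% of control in the control arrays, 139%, 111%, 120% and 102% in the siRNA1 arrays and 156%, 160% and 126% in the siRNA2 arrays. The siRNA2 arrays were above all control arrays, and the siRNA1 arrays reached into the control range. The log2 difference was 0.55 ± 0.12 (SE; limma, adjusted p = 0.00895) with siRNA2 and 0.23 ± 0.11 (adjusted p = 0.158) with siRNA1, and the difference between the siRNAs, -0.32 ± 0.12, did not pass (adjusted p = 0.0813), except without siRNA1 array 1 or siRNA2 array 3, at -0.40 (adjusted p = 0.0337) and -0.43 (adjusted p = 0.0391). The siRNA2 call was lost without slide 1, at 0.49 (adjusted p = 0.100), and without slide 2, at 0.47 (adjusted p = 0.208).

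Of 14 probes for other early genes of this pathway, 4 were higher and 6 lower with siRNA1, and 2 higher and 2 lower with siRNA2. Over all tested probes these shares were 11.8% and 15.2% with siRNA1, and 7.7% and 10.7% with siRNA2. *Smad2*, a signal transducer, was higher with both siRNAs (log2 difference 0.65 and 0.59), as was 1 probe of *Skil*, encoding the inhibitor SnoN (0.37 and 0.40), whose other probe passed with siRNA1 (0.53). The inhibitory *Smad7* was lower with both (-0.88 and -0.52). *Id1* (-0.55 and -0.50 on its probes) and *Id3* (-0.67), which encode inhibitors of DNA binding, were lower with siRNA1. The list's members thus went both ways while *Klf10* was higher.

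*Klf7*, an activator best known from neurons, went apart with the 2 siRNAs. Its level was 97.5%, 101%, 91.8% and 111% of control in the control arrays, 80.0%, 109%, 80.2% and 106% in the siRNA1 arrays and 141%, 128% and 130% in the siRNA2 arrays, which lay above all others. The log2 difference was 0.41 ± 0.13 (SE; limma, adjusted p = 0.0463) with siRNA2 and -0.11 ± 0.12 (adjusted p = 0.546) with siRNA1. The direct difference of siRNA1 from siRNA2 was -0.52 ± 0.13 (adjusted p = 0.0128; exact permutation p = 0.0571). The siRNA2 call was close to the threshold and was lost on leaving out control array 1, 2 or 3 or any siRNA2 array, with an adjusted p of up to 0.130. The direct call was lost without slide 1, at -0.41 (adjusted p = 0.131), and without slide 2, at -0.55 (adjusted p = 0.134).

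*Klf16*, a repressor of the *Klf9* group, was the only one of the 12 probes that was lower. Its level was 97.7%, 98.0%, 104% and 101% of control in the control arrays, 72.7%, 87.5%, 83.2% and 85.8% in the siRNA1 arrays and 97.3%, 111% and 127% in the siRNA2 arrays. The log2 difference was -0.28 ± 0.096 (SE; limma, adjusted p = 0.0479) with siRNA1 and 0.15 ± 0.10 (adjusted p = 0.386) with siRNA2, and the siRNAs differed by -0.43 ± 0.10 (adjusted p = 0.0107). Before scaling, the mean processed signal was 590 in control and 613 in siRNA1, so that the lower value with siRNA1 exists on the scaled values alone. With median scaling it was -0.24 (adjusted p = 0.160), and within slides 1, 2 and 3 it was -0.43, -0.28 and -0.23. The call with siRNA1 held on leaving out siRNA2 array 1 or 3 and was lost on leaving out any other array, with an adjusted p of up to 0.124. The direct call was lost without siRNA2 array 3, at -0.34 (adjusted p = 0.0510), without slide 2, at -0.49 (adjusted p = 0.169), and without slide 3, at -0.36 (adjusted p = 0.0886).

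**Figure D3:**
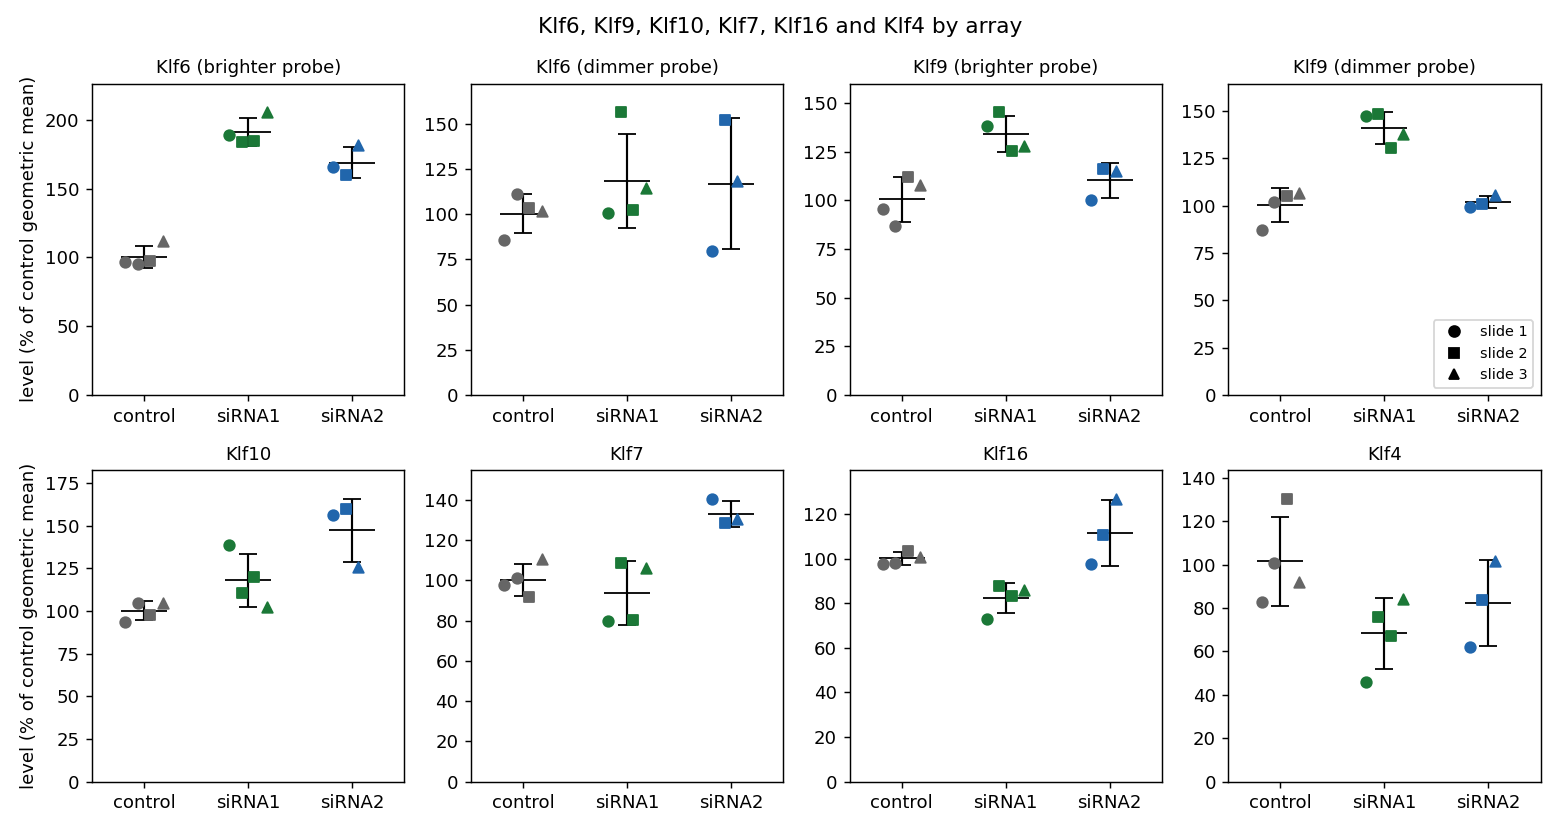
Level of *Klf6* and *Klf9* (2 probes each), *Klf10*, *Klf7*, *Klf16* and *Klf4* in percent of the control geometric mean (vertical axes, from 0) for each array of the 3 groups (horizontal axes); symbols give the slide, and the horizontal bars with whiskers the mean and SD. The brighter *Klf6* probe lies between 160% and 206% in all siRNA arrays, *Klf9* is raised in the siRNA1 arrays, *Klf7* and *Klf10* are raised in the siRNA2 arrays, and *Klf16* is lowest in the siRNA1 arrays.

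*Klf4*, a factor of epithelial differentiation and pluripotency, was the member with negative values for both siRNAs. Its level was 82.8%, 101%, 130% and 91.9% of control in the control arrays, 46.0%, 76.0%, 67.0% and 84.2% in the siRNA1 arrays and 62.0%, 83.7% and 101% in the siRNA2 arrays. The groups overlapped, and the log2 difference of -0.59 ± 0.21 (SE; limma, adjusted p = 0.0658) with siRNA1 and of -0.31 ± 0.23 (adjusted p = 0.430) with siRNA2 did not pass. Within slides 1, 2 and 3 the siRNA1 difference was -0.99, -0.87 and -0.13, and with the slide as a block it was -0.71 and passed (adjusted p = 0.00813). It also passed with the replicate number as a block, at -0.59 (adjusted p = 0.0118), and without siRNA1 array 4, at -0.70 (adjusted p = 0.0472).

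Several members, *Klf4*, *Klf6* and *Klf10* among them, are themselves early response genes. Of 29 probes for other immediate early genes, 3 were higher and 8 lower with siRNA1, and 1 was higher and 7 lower with siRNA2. Among all tested probes these shares were 11.8% and 15.2% with siRNA1, and 7.7% and 10.7% with siRNA2. *Egr1* (log2 difference -0.72 and -0.93), *Egr2* (-0.80 and -0.61), *Fosb* (-0.89 and -0.37), *Ier3* (-0.61 and -0.47) and *Ier5* (-0.68 and -0.52) were lower with both siRNAs. *Nr4a2* was also called lower with both (-1.09 and -1.57), but was above background on only 7 of the 11 arrays. Its mean signal was 9.52, where the lowest signal well above background was 6.94 to 8.90 per array. A probe entered the test if it was well above background throughout 1 group, so the *Nr4a2* values are given as a description only. Both counts of lower probes above, 8 with siRNA1 and 7 with siRNA2, include *Nr4a2*. *Dusp1*, encoding a phosphatase that acts on MAP kinases, was higher with both (0.46 and 0.53). With siRNA1, 1 probe of *Fosl2* was higher (0.56) and the other did not pass (-0.10). Also with siRNA1, 1 probe of *Btg2* was lower (-0.55) and its other probes did not pass (-0.40 and -0.42). *Fos* was lower with siRNA2 (-0.49).

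The remaining members, *Klf3*, *Klf5* and *Klf13*, did not pass the test with either siRNA in the fit without a block. *Klf3*, a repressor that limits fat cell formation, was at 120%, 122% and 136% of control in the siRNA2 arrays on its brighter probe (A_52_P462392), above the control arrays at 89.1% to 109%, with a log2 difference of 0.33 ± 0.12 (SE; limma, adjusted p = 0.0716). With the slide as a block this probe passed, at 0.31 (adjusted p = 0.0425), and within slides 1, 2 and 3 it was at 0.37, 0.17 and 0.35. On its dimmer probe (A_51_P492640) the siRNA2 difference was also 0.33 (adjusted p = 0.187), with overlapping groups, and the siRNA1 differences were 0.094 and 0.045 on the brighter and dimmer probes. *Klf13*, which activates or represses depending on the promoter, ranged from 82.2% to 118% in control, from 84.1% to 138% in siRNA1 and from 109% to 178% in siRNA2, with differences of 0.16 (adjusted p = 0.605) and 0.43 (adjusted p = 0.220). With the replicate number as a block, *Klf13* passed with siRNA2, at 0.52 (adjusted p = 0.0454 by limma). In that fit the brighter and dimmer *Klf3* probes also passed with siRNA2, at 0.38 (adjusted p = 0.00871) and 0.36 (adjusted p = 0.0325). *Klf5*, an activator of proliferating epithelium and of early fat cell formation, ranged from 84.2% to 131% over all arrays, with differences of 0.11 (interval -0.15 to 0.37) and 0.13 (interval -0.16 to 0.41). Of 6 probes for the fat cell factors that act with *Klf5*, 1 passed the test: *Srebf1*, encoding a regulator of lipid synthesis, was lower with siRNA1 (-0.56). Over all tested probes, 15.2% were lower with siRNA1.

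**Figure D4:**
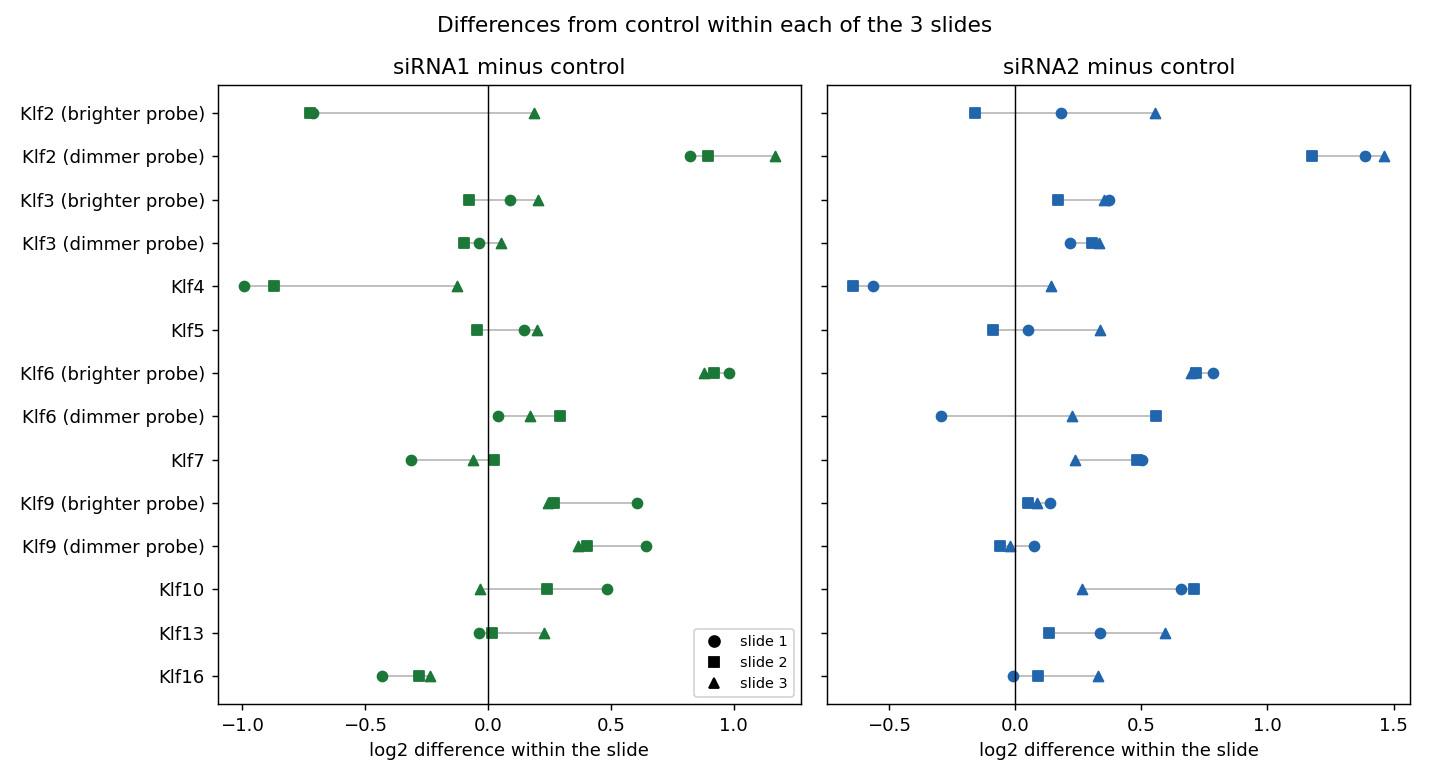
Log2 difference from control within each slide (horizontal axes) for the 14 probes (vertical axis), with siRNA1 on the left and siRNA2 on the right; each symbol is 1 slide, and grey lines join the slides of a probe. The 3 slides lie close together for the brighter *Klf6* probe (0.88 to 0.98 and 0.70 to 0.79) and apart for *Klf4* and for the brighter *Klf2* probe.

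The direct comparison of siRNA1 with siRNA2 had 1 of the 14 probes higher (the dimmer *Klf9* probe) and 2 lower (*Klf7* and *Klf16*), where 11.7% of all tested probes were higher and 11.8% lower. The other genes of the family were measured beside them. Of 8 tested probes of *Klf1*, *Klf8*, *Klf11*, *Klf12*, *Klf15* and *Klf17*, 3 were higher with siRNA1 and none passed with siRNA2. Over all tested probes, 11.8% were higher with siRNA1. *Klf15*, a metabolic regulator induced by glucocorticoid, was higher with siRNA1 on both probes (0.58, adjusted p = 0.00147, and 0.44, adjusted p = 0.0484, by limma) and was also higher with siRNA1 than with siRNA2 (0.70 and 0.50). *Klf11*, the gene closest to *Klf10*, was higher with siRNA1 on its brighter probe (0.41, adjusted p = 0.0185), which did not pass in the direct comparison (0.21, adjusted p = 0.241).

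The Sp factors, which bind the same elements, and proteins with which Krüppel-like factors act were measured beside the members. Of 5 tested Sp probes, 3 were higher with siRNA1 and 2 with siRNA2 (against 11.8% and 7.7% of all tested probes). Both probes of *Sp3* were higher with each siRNA (log2 difference 0.31 and 0.33 with siRNA1, 0.58 and 0.48 with siRNA2), and *Sp1* was higher with siRNA1 (0.33). Of 18 probes for corepressors, acetylases and ubiquitin ligases, 1 was higher with siRNA1 (against 11.8% of all tested probes). It was a probe of *Ep300*, encoding the acetylase p300 (0.37), whose other probe did not pass (0.32). With siRNA2, both probes of *Fbxw7*, encoding the substrate receptor of a ubiquitin ligase, were higher (0.56 and 0.64), and *Sap30*, a subunit of the Sin3 complex, was lower (-0.83).

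Of 9 probes for cholesterol supply and side-chain cleavage genes with GC-rich promoters, 2 were lower with each siRNA and none was higher. Over all tested probes, 15.2% were lower with siRNA1 and 10.7% with siRNA2. *Fdx1*, encoding the electron donor of side-chain cleavage, was lower on 1 of its 3 probes with both (-0.38 and -0.49) and on another with siRNA2 (-0.40), and the third probe passed with neither (-0.10 and -0.48). *Scarb1*, encoding the receptor for high-density lipoprotein, was lower with siRNA1 (-0.58). The summed level of the Leydig cell marker probes, in percent of the 75th percentile, was 45561 to 59911 in control, 41845 to 48547 in siRNA1 and 51177 to 61958 in siRNA2, and its part in the values of the members was not tested. The largest signals in this sum were those of *Hsd3b1* (mean 102555) and the *Cyp11a1* probes (58542 and 48299). Of the 9 Leydig cell probes, 2 were lower with siRNA1, 1 was lower with siRNA2 and none was higher, against the same shares over all tested probes. *Cyp17a1* was lower with both siRNAs (-0.92 and -0.48) and *Lhcgr* with siRNA1 (-0.63). Of the blood cell markers, *Ptprc* and *Adgre1* were above background on no array, the *Csf1r* probes on 5, 1 and 6 arrays, and *Cd3e* on all 11. Of the Sertoli cell markers, *Sox9* and *Wt1* were above background on no array, whereas *Amh* and *Dhh*, a hedgehog ligand gene, were on all 11, and *Dhh* was higher with siRNA2 (0.72, adjusted p = 0.00103 by limma). The Sertoli probes summed to 271 to 304 percent of the 75th percentile in control, 245 to 304 in siRNA1 and 421 to 507 in siRNA2. Most of this sum was *Dhh*, with a mean signal of 1733 against 90.4 for *Amh*, so that it follows 1 gene. *Amh* did not pass with siRNA2 (0.030, adjusted p = 0.952 by limma). The part of this sum in the values of *Klf7* and *Klf10*, which were also higher with siRNA2, was not tested. Of the germ cell markers, a probe of *Dazl* was above background on 1 array and its other probe on no array. *Ddx4* was above background on 8 arrays, with a mean signal of 15.6 over all 11. It was lower with siRNA1 (-1.72), but as it was not above background on every array, this value is given as a description only.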

How the data were processed

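Total RNA of MLTCs was labelled with Cy3 and hybridized to 1-colour Agilent whole mouse genome arrays. The deposited files hold each spot's intensity per the file headers: the processed signal, made by the authors with Feature Extraction 9.5.1.1 after background subtraction. A deposited table of group averages for probes that the authors had selected was not used.

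Outlier-marked and control spots were left out, the spots of a probe were averaged, and log2 intensities minus each array's 75th percentile were analysed per probe. The 24250 of 41174 probes that were well above background throughout at least 1 of the 3 groups were tested with limma 3.58.1 in R 4.3.3 over all 11 arrays, with Benjamini-Hochberg adjustment over all tested probes and a threshold of 0.05. The procedure was tested on simulated data. Single probes also had an exact two-sided permutation test. Genes were named by RefSeq accession (24367 probes). In a gene with 2 probes the brighter and dimmer probe were kept apart. The number of arrays limits the precision.

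The members and the gene lists were chosen with earlier results of these data known. The genes named are every member, every listed probe called with both siRNAs, up to 3 more per list by size of change, and the 5 probes most correlated with each *Klf2* probe; 1 listed gene is counted but not reported here. Motifs were searched on both strands. Alternatives were other background corrections, scalings, filters, blocks, tests, and leaving out arrays or slides.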

Additional observations from a re-analysis of the deposited data

Results flagged for a closer look

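*Klf6* on its brighter probe had 1 array apart from the rest of its group: control array 4 lay at 112% of control, against 95.2% to 97.4% in the other control arrays. Of 28 groups of 4 arrays examined for the 14 probes, 1 held such an array, and chance flags about 1 in 20 groups. The siRNA1 and siRNA2 differences without that array stayed past the threshold.

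*Klf7*, *Klf9* and *Klf16* had probes on which the 2 siRNAs differed from each other in the direct test. The log2 difference of siRNA1 from siRNA2 was -0.52 for *Klf7* (adjusted p = 0.0128 by limma), 0.47 for the dimmer *Klf9* probe (adjusted p = 0.00379) and -0.43 for *Klf16* (adjusted p = 0.0107).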

How the results depend on the processing

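Each count and single-probe difference was computed under 27 other settings. Of these, normexp with extreme local backgrounds replaced and omitting a slide were chosen after seeing the data. Single-probe values were judged by p alone, adjusted except in the unadjusted t-test. Of those tested, 937 kept direction and side of the threshold, 49 kept the direction but no longer passed, 18 newly passed and 22 changed sign. The *Klf2* differences from control, which had no test, kept their sign except on the brighter probe with siRNA1, at 0.18 without control array 3 and 0.27 without siRNA1 array 1. Counts below are of the 12 probes without *Klf2*, and of 14 for the direct comparison.

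With siRNA1 the 3 higher probes became 0 with normexp, 0 with a required 2-fold change and 1 without slide 2. They stayed 3 on leaving out any array. The 1 lower probe became 0 with normexp, median scaling, no filter, a 2-fold change, and without slide 1, slide 2 or slide 3; it became 2 with the slide as a block, with the replicate block and with the methods' t-test unadjusted, and was 0 to 1 on leaving out single arrays. With siRNA2 the 3 higher probes became 0 with normexp and with a 2-fold change, 6 with the replicate block, 1 without slide 1 and 1 without slide 2, and 2 to 3 on leaving out single arrays. In the direct comparison the 1 higher probe became 0 with normexp, 2-fold change and without slide 2, 2 with the slide block, and 3 with the unadjusted t-test. The 2 lower probes became 0 with normexp, the adjusted t-test, the 2-fold change and without slide 2, 1 without slide 1 or slide 3, 5 with the replicate block, and 2 to 3 on leaving out single arrays. The cause was not tested.

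The brighter *Klf6* probe lost its call under normexp alone, at 0.61 (adjusted p = 0.255 by limma) and 0.58 (0.647). *Klf9* and *Klf10* lost theirs under normexp and without slide 2, and the brighter *Klf9* probe and *Klf10* also without slide 1. *Klf16* with siRNA1 passed in 12 of 27 settings (p 0.00413 to 0.439) and *Klf7* with siRNA2 in 14 of 27 (0.00271 to 0.738). Each lowest p is by unadjusted t-test. Over all probes the higher and lower counts were 2858 and 3695 with siRNA1, 1867 and 2605 with siRNA2, and 2847 and 2862 in the direct comparison. Normexp left 111 higher and 270 lower with siRNA1, 32 and 91 with siRNA2, and 41 and 40 in the direct comparison, and moved the median log2 difference to 0.22, 0.17 and 0.11; with extreme local backgrounds replaced these counts were 2390 and 5062, 1520 and 2190, and 2342 and 2993. The 2-fold rule left 288 and 438, 180 and 365, and 463 and 351, and leaving out slide 2 left 1720 in both directions together with siRNA1, 1071 with siRNA2 and 1280 in the direct comparison. Without slide 1 there were 1626 and 2180 with siRNA1 and 801 and 1344 with siRNA2, and without slide 3 there were 1101 and 1612 with siRNA2 and 1826 and 1700 in the direct comparison. The methods' t-test gave 1113 and 1741 with siRNA2 after adjustment and 2883 and 3821 before it.

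Values that changed sign had not passed the test. The dimmer *Klf3* probe with siRNA1 became -0.042 with the slide block, -0.071 without control 1, -0.034 without siRNA1 array 2 and -0.022 without slide 1 (-0.071 to 0.12 over single arrays left out). *Klf5* with siRNA2 became -0.0017 without siRNA2 array 3 (-0.0017 to 0.21 over single arrays left out), and in the direct comparison 0.11 with normexp, 0.024 with median scaling, 0.033 without siRNA1 array 3, 0.11 without siRNA2 array 3 (-0.094 to 0.11 over single arrays) and 0.068 without slide 3. The dimmer *Klf6* probe became -0.034 with siRNA1 under normexp, -0.040 with siRNA2 without siRNA2 array 2 (-0.040 to 0.43 over single arrays) and -0.024 without slide 2, and in the direct comparison -0.042 with normexp, -0.0024 with the slide block, -0.097 without siRNA1 array 2, -0.21 without siRNA2 array 1 (-0.21 to 0.26 over single arrays) and -0.13 without slide 1. Under normexp *Klf7* with siRNA1 was 0.46 and *Klf10* with siRNA1 was -0.10. The dimmer *Klf9* probe with siRNA2 was -0.038 without control 1 (-0.038 to 0.059 over single arrays) and -0.039 without slide 1.

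Whether the replicate numbers of the labels pair the arrays was not settled. Deviations of same-numbered arrays correlated with r of -0.18 to 0.53 in 10 pairs, not all over 0.1 (median 0.30, against -0.10 for other numbers). Arrays of the same slide had a median r of 0.30, against -0.13 for other slides, and same-numbered arrays in part share a slide.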
